A study of Mus musculus with 6 samples.

Results

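The AP-1 factors are dimers of the Fos proteins (Fos, Fosb, Fosl1 and Fosl2), the Jun proteins (Jun, Junb and Jund) and relatives such as Atf3, and H3K27ac at their genes was followed in quadriceps of sedentary and detrained mice. The members were all peaks that the tables annotated to 1 of these 8 genes, near to or far from the start. This annotation gives the nearest gene and does not show which gene a peak regulates. Member peaks numbered 69 of the 46988 peaks in the control list and 57 of the 40721 peaks in the detrained list, and 7 of the 8 genes had at least 1 peak in both lists. H3K27ac, acetylation of lysine 27 of histone H3, marks active promoters and enhancers, and it was measured by chromatin immunoprecipitation sequencing (ChIP-seq). The samples were quadriceps femoris of wild-type male mice, C57BL/6J in the study's methods. The labels give the strain as C57BL/6 for the 4 H3K27ac libraries but as C57BL/7 for the control input and C57BL/8 for the detrained input, and every fold over input rests on these inputs. Control mice were sedentary. Detrained mice had free access to running wheels for 4 weeks from 8 weeks of age, and their muscle was collected once 72 hours had passed since running. Each group had 2 H3K27ac libraries and 1 input library, and each sample was the muscle of 1 animal. The control libraries are called C2 and C3 and the detrained libraries Ex1 and Ex2, as in the table headers.

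AP-1 dimers bind a short palindromic site in promoters and enhancers. Fos and Fosb are immediate early genes, transcribed within minutes of a stimulus such as contraction, when serum response factor (SRF) and its partners at a CArG box, and CREB at a cyclic AMP response element (CRE), are activated by MAP kinases and calcium. Jun is turned on by related signals and can bind its own promoter. Jund and Fosl2 are less strongly induced by most stimuli, and Atf3 is a stress-induced repressor or activator that dimerizes with Jun proteins. The induction of the immediate early genes is known to be transient, and the muscle here was collected well after running had ended.

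The 250 bases upstream of the starts are shown for 6 of the genes because they hold or neighbour the signal response elements described here. They are written 5′ to 3′ from RefSeq promoter windows on build GRCm38.p6 (mm10). For Jund the bases upstream of the GENCODE start are shown instead, read from the same genome, since the RefSeq start, on which the promoter values of Jund below rest, lies 1210 bases upstream of it. Capitals mark a CRE (TGACGTCA), the same with at most 1 mismatch, its short form TGACG on either strand, or an AP-1 site (TGACTCA or TGAGTCA).
Fos, chr12:85473640-85473889, plus strand: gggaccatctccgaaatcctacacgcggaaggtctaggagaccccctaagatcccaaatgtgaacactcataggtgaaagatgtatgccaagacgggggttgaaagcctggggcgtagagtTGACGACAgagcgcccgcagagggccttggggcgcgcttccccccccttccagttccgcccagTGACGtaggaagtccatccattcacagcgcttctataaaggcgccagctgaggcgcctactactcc
Fosb, chr7:19310046-19310295, minus strand: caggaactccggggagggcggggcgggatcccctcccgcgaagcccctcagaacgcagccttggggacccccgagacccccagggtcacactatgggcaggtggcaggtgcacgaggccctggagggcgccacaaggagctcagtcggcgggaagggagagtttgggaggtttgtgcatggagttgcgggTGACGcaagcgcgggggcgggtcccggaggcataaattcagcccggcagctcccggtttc
Jun, chr4:95052223-95052472, minus strand: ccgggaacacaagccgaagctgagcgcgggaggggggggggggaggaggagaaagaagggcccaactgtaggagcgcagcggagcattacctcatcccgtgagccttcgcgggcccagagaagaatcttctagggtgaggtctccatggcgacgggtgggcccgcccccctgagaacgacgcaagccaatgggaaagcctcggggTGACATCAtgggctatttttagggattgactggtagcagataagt
Junb, chr8:84978749-84978998, minus strand: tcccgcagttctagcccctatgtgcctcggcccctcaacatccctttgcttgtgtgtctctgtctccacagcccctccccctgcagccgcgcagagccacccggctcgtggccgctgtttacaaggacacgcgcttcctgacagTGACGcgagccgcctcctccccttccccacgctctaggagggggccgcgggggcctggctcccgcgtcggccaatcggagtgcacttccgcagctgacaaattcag
Jund, chr8:70698699-70698948, plus strand: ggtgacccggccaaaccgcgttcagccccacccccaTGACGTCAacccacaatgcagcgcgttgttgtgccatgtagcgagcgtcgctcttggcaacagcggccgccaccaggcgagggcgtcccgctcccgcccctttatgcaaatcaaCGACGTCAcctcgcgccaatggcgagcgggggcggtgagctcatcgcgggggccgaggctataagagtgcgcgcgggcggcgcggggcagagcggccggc
Atf3, chr1:191183334-191183583, minus strand: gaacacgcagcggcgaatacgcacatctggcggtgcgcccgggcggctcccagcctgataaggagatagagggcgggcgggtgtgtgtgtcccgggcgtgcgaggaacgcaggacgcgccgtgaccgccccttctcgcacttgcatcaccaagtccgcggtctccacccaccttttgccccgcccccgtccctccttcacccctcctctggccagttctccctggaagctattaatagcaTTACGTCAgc

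No exact AP-1 site, CRE or CArG box lay in any of the 7 RefSeq windows, each of 300 bases (250 before the start and 50 after). In all 32851 such windows an AP-1 site was present in 5.20%, a CRE in 1.79% and a CArG box in 1.63%. The short form TGACG was present in 4 of the 7 (Fos, Fosb, Junb and Atf3) and in 20.8% of all windows, and it is contained in any full CRE. The CCAAT box (CCAAT, either strand) was present in 3 of 7 and 37.4% of all windows, and the GC box (GGGCGG, either strand) in 5 of 7 and 35.7%. With 1 mismatch allowed, a CRE was present in Fos, Jun and Atf3, against 10.9% of 2000 windows drawn from all. The Jun match TGACATCA began 45 bases before the start, and the Atf3 match TTACGTCA began 10 bases before it. At the GENCODE start of Jund an exact CRE began 214 bases upstream, and that window held 38 CpG dinucleotides against 3 in the RefSeq window of Jund. A missing match says only that these letters are not in the window.

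CArG boxes were found a little farther out, inside the H3K27ac peaks, and are shown in capitals because they carry the SRF site of the best known immediate early promoters. Each window has 27 bases on either side of the box.
Fos CArG box, chr12:85473554-85473617, plus strand: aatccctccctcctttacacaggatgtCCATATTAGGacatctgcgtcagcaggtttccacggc
Fosb CArG box, chr7:19310281-19310344, plus strand: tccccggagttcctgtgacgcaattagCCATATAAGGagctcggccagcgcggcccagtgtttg
Junb CArG box, chr8:84980132-84980195, plus strand: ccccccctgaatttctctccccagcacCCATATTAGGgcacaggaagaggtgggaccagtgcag
Junb CArG box, chr8:84976597-84976660, plus strand: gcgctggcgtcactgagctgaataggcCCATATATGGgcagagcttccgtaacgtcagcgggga
Fos CArG box, chr12:85463003-85463066, plus strand: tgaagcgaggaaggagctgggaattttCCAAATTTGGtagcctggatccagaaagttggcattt
Relative to the start the Fos box lay at -0.31 kb, the Fosb box at -0.26 kb, and the Junb boxes at -1.41 kb and 2.12 kb. The last box lay at -10.86 kb from the Fos start, in a peak centred at -10.2 kb in the control list and at -11.2 kb in the detrained list. In all, the 69 control member peaks held 14 CArG boxes, 0.0851 per kb of listed peak, against 0.0512 per kb over all control peaks. The 57 detrained member peaks held 11, 0.0641 per kb, against 0.0510 per kb. Parts of peaks present in both lists held 10 of these boxes. The boxes counted in member peaks number too few for a rate to be read closely.

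The libraries were of similar depth, between 20805019 and 22400894 tags, and the inputs held 10812470 tags (control) and 21298438 tags (detrained). Promoters of skeletal muscle markers carried a peak in both lists for the 7 markers, of 8, that had a RefSeq window, among them Ckm and Acta1. Both lists also held peaks annotated to all 4 endothelial and all 4 fibro-adipogenic markers, and in such mixed tissue fewer cells of a type cannot be told apart from less acetylation per cell. Peaks of the adipocyte markers Adipoq and Plin1 were absent from both lists. Tags summed over the peaks of the 4 immune markers were 162 and 126 per 10000000 in the control libraries and 258 and 213 in the detrained libraries, and the start of Ptprc, the gene of the leukocyte antigen CD45, lay in a peak (41.0 tags) in the detrained list but not in the control list. The start of the macrophage gene Cd68 also lay in a peak only in the detrained list, one of 368 tags annotated to Mir1934. The 2 satellite cell markers summed to 179 and 173 tags against 227 and 246, and the fibro-adipogenic markers to 2420 and 2355 against 2927 and 2921. Schwann cell markers summed to 90.7 and 96.1 against 121 and 93.3, smooth muscle markers to 231 and 245 against 283 and 270, endothelial markers to 2150 and 2506 against 2790 and 2204, and skeletal muscle markers to 7159 and 9204 against 8481 and 8307. What part these differences have in the values below was not tested.

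Promoters of 5 of the 7 genes ranked among the more strongly acetylated of the tissue. A peak held the RefSeq start in both lists for all 7 genes. In the control list the Fos promoter peak had more tags per kb than 98.7% of 8750 promoter peaks. The Jun peak exceeded 97.8%, Jund 97.8%, Fosl2 90.3% and Junb 86.0%, while Fosb exceeded 42.2% and Atf3 36.7%. Signal over the control input followed the same division, from 13.5-fold for Fosl2 to 15.7-fold for Fos among these 5, against 5.99-fold for Fosb and 5.17-fold for Atf3. In the detrained list the first 5 genes exceeded 88.1% (Jund) to 98.1% (Fosl2) of 8743 promoter peaks, and Fosb and Atf3 exceeded 43.8% and 48.7%.

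The tables were normalized separately and give no tag counts per library, so no test was made between groups. The pooled tags of each peak were shared out between the 2 libraries by their log2 values, and 2 against 2 libraries cannot give a 2-sided exact permutation p below 0.333. Groups are called apart where the 2 detrained values are both above, or both below, the 2 control values. Values are given on 2 scales, as tags per kb of the called peak and as tags per called peak, each per 10000000 tags of the library, since the called length of a peak often differed between the lists.

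**Figure D1:**
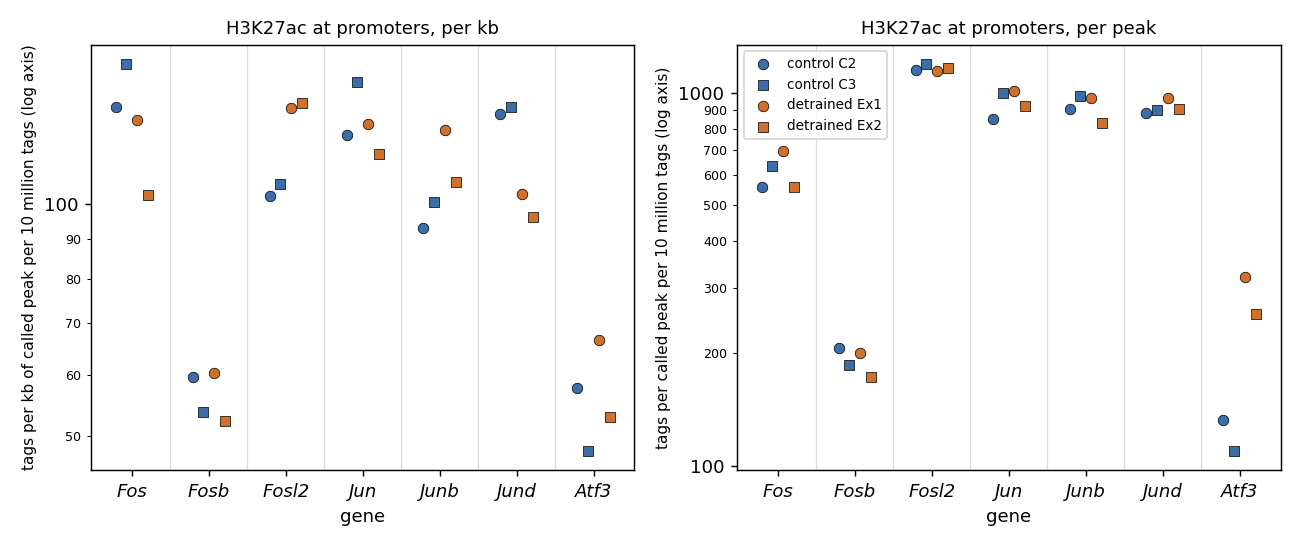
H3K27ac at the promoter peaks of 7 AP-1 genes in each library (blue, control C2 and C3; orange, detrained Ex1 and Ex2), as tags per kb of called peak (left) and tags per called peak (right), both per 10000000 tags on log axes. On the left Fosl2 and Junb are higher and Fos and Jund lower in both detrained libraries; on the right the libraries lie close together for all genes but Atf3.

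At the Fos promoter, which drives the prototype immediate early gene, the control libraries had 134 and 152 tags per kb and the detrained libraries 129 and 103. Both detrained libraries were lower, by 0.31 on the log2 scale (pooled SD within groups 0.19). The log2 difference was -0.15 without Ex2 and -0.47 without Ex1. The called peak was longer in the detrained list, 5418 bp against 4170 bp, and the tags in the whole peak were 558 and 635 against 696 and 557, which overlapped. Pooled tags differed by 4.82%.

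The Jund promoter, of the most constitutively expressed Jun gene, had 131 and 134 tags per kb in the control libraries and 103 and 96.3 in the detrained libraries, a log2 difference of -0.41 (SD 0.05). Its called peak was 6717 bp in the control list and 9366 bp in the detrained list, where it overlapped the neighbouring gene Iqcn too. On the scale of tags per peak the order was turned, with 881 and 898 tags against 966 and 902, a log2 difference of 0.07. Summed over the locus, where the control list had a further peak of 75.1 tags in Iqcn, the libraries overlapped at 961 and 969 against 966 and 902 tags.

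Fosl2 and Junb showed the opposite pair of directions. Fosl2, the Fos relative Fra-2, had 103 and 106 tags per kb in the control libraries and 133 and 135 in the detrained libraries, a log2 difference of 0.36 (SD 0.03). Its called peak was 11222 bp against 8584 bp, and its tags per peak were 1151 and 1194 against 1143 and 1163, which overlapped. Junb had 93.0 and 101 tags per kb against 125 and 107, a difference of 0.26 (SD 0.12) that was 0.15 without Ex1, over called lengths of 9741 bp and 7739 bp. Its tags per peak were 906 and 980 against 966 and 828 and overlapped. The longer control peak of Junb reached Prdx2, which the detrained peak did not.

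At the promoters of Jun and Fosb the groups overlapped on both scales. Jun had 123 and 144 tags per kb against 127 and 116, and 849 and 996 tags per peak against 1008 and 922. Fosb had 59.6 and 53.8 tags per kb against 60.4 and 52.2, and 207 and 186 tags per peak against 200 and 173. Its called length was nearly the same in both lists, at 3468 bp and 3316 bp.

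On tags per peak Atf3 had the largest difference of the 7 promoters, while on tags per kb its groups overlapped. The control libraries had 132 and 109 tags in the peak holding the start and the detrained libraries 320 and 255, by the division of 121 and 286 pooled tags. This is a log2 difference of 1.25 per peak, and both detrained libraries were higher. The detrained peak was 4812 bp long and overlapped 2 control peaks, of 2290 bp and 915 bp. Summed over the locus the tags were 167 and 142 in the control libraries against 320 and 255, a log2 difference of 0.89 (SD 0.20). Per kb of the peak at the start the values were 57.8 and 47.8 against 66.6 and 53.0, which overlapped, at a log2 difference of 0.18. The summed tags of the immune, fibro-adipogenic, satellite cell and smooth muscle markers given above were also higher in both detrained libraries. These sums are over called peaks, which for the immune markers were 3 in the control list and 5 in the detrained list. Single marker promoters did not all follow. Per peak, Acta2 (smooth muscle) was lower in both detrained libraries, at -0.13, and Myf5 (satellite cell) overlapped, while Pax7, Pdgfra and Col3a1 were higher. What part the markers have in the Atf3 values was not tested.

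The 6 promoters other than Atf3 thus held pooled tags within -5.24% to 4.89% of each other between the lists, while 5 of the 7 promoters had log2 differences of opposite sign on the 2 scales. The share with opposite signs was not counted over all promoter peaks. Among the gene lists below, promoters such as Atf4 and Klf6 also had opposite signs, while others such as Map2k7 and Mrtfb did not. On tags per kb 4 of the 7 had groups apart, 2 higher and 2 lower in the detrained libraries. On tags per peak 2 had groups apart, Atf3 and Jund, both higher. Over all 8775 promoter peaks the groups were apart for 54.4% per kb (23.7% higher and 30.7% lower) and for 49.5% per peak (19% higher and 30.5% lower).

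**Figure D2:**
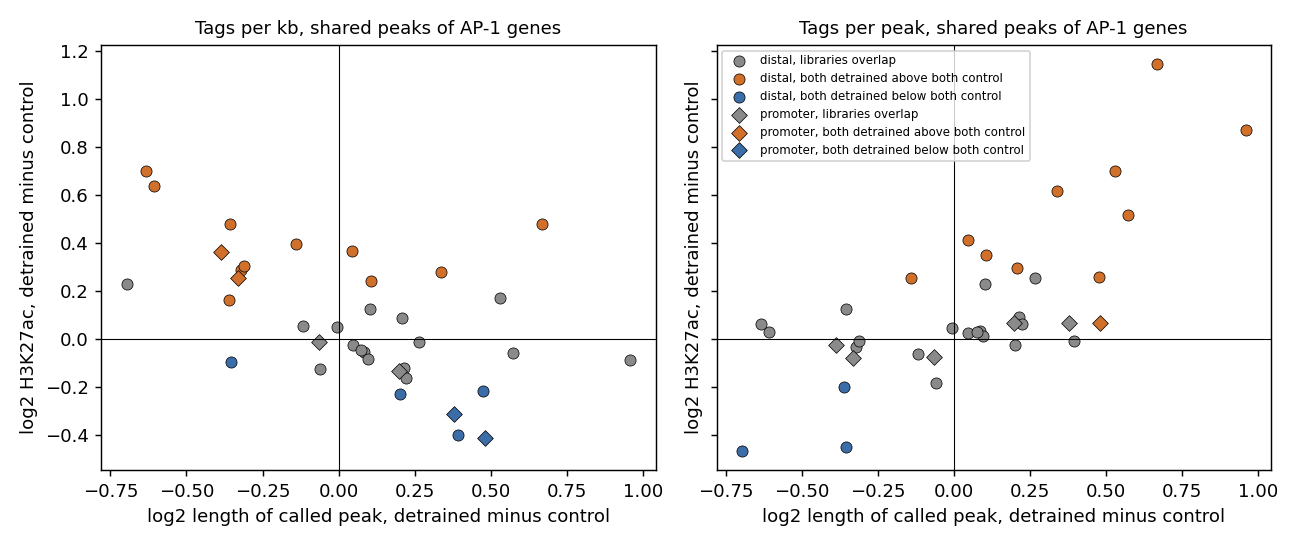
Log2 difference in H3K27ac (detrained minus control) against the log2 difference in called length for the 37 shared peaks of AP-1 genes, as tags per kb (left) and tags per peak (right). Circles are distal and diamonds promoter peaks, orange and blue mark groups that are apart, and most points fall from left to right on the left and rise on the right.

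Between the lists, 52 of the 69 control member peaks (75.4%) shared any base with the detrained list, against 72.1% of all control peaks. In the other direction 50 of 57 (87.7%) overlapped a control peak, against 82.0% of all detrained peaks. The 17 control member peaks with no detrained counterpart had pooled tags from 5.66 to 51.8, with a median of 9.73, against a median of 87.5 for those that overlapped. They belonged to Fos (6), Jun (6), Fosl2 (3), Fosb (1) and Atf3 (1). The 7 detrained peaks with no control counterpart had 6.72 to 75.8 tags, and belonged to Fosl2 (3), Jun (2), Fosb (1) and Atf3 (1). The strongest of them was centred at -9.2 kb from the Fosb start, at the end of the noncoding gene D830036C21Rik, with 75.8 pooled tags over 2380 bp and 5.09-fold over input. A nearby control peak of 14.9 tags did not reach it.

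One-to-one pairs in which each peak covered at least 50% of the other numbered 26432, of which 37 belonged to members, 6 at promoters and 31 distal. The members' median log2 difference was 0.05 per kb, against -0.03 over all shared peaks, with a median SD within groups of 0.17. The groups were apart at 19 of the 37 (51.4%), 13 higher and 6 lower in the detrained libraries, against 48.5% of all shared peaks (21.3% higher and 27.2% lower). On tags per peak they were apart at 14 (37.8%), 11 higher and 3 lower, against 53.4% (24.7% higher and 28.8% lower). No shared member peak differed by 2-fold or more per kb with groups apart, where the share over all shared peaks was 0.0757% (0.0151% higher and 0.0605% lower). Of the 22 member peaks that were longer in the detrained list 15 had a log2 difference per kb below 0, and of the 15 that were shorter 12 had one above 0. On tags per peak, 20 of the 22 longer peaks were above 0 and 10 of the 15 shorter ones below 0. Over all shared peaks, 74.0% of the longer ones were below 0 and 67.4% of the shorter ones above 0 per kb, while 73.8% of the longer ones were above 0 and 81.4% of the shorter ones below 0 per peak. Both scales thus moved with the called length, in opposite directions. With totals set to the tags in listed peaks instead, 15 member peaks were higher and 3 lower, against 27.8% and 22% of all shared peaks.

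Only 6 shared member peaks (16.2%) were apart in the same direction on both scales, against 16.0% of all shared peaks (6.37% higher and 9.60% lower). Of these, 5 were higher in the detrained libraries. The peak 53.9 kb upstream of Jun had 30.7 and 35.4 tags per kb in the control libraries and 44.8 and 35.9 in the detrained libraries, or 50.9 and 58.6 tags per peak against 93.9 and 75.1. The peak 93.6 kb upstream of Jun had 14.6 and 21.1 tags per peak against 38.7 and 39.1, a log2 difference of 1.15 per peak and 0.48 per kb. The peak 49.2 kb downstream of the Fos start had 32.1 and 26.3 tags per peak against 37.9 and 39.5, with differences of 0.41 and 0.37. The peak 16.7 kb upstream of Fosb had 46.3 and 50.3 tags per kb against 55.4 and 59.1, a difference of 0.25, and the peak 50.8 kb upstream of Fosl2 had 22.5 and 21.2 against 28.7 and 28.9, a difference of 0.40. The single lower peak lay 10.9 kb upstream of Jund, with 106 and 96.8 tags per peak against 73.3 and 74.9, a log2 difference of -0.45 per peak and -0.10 per kb.

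**Figure D3:**
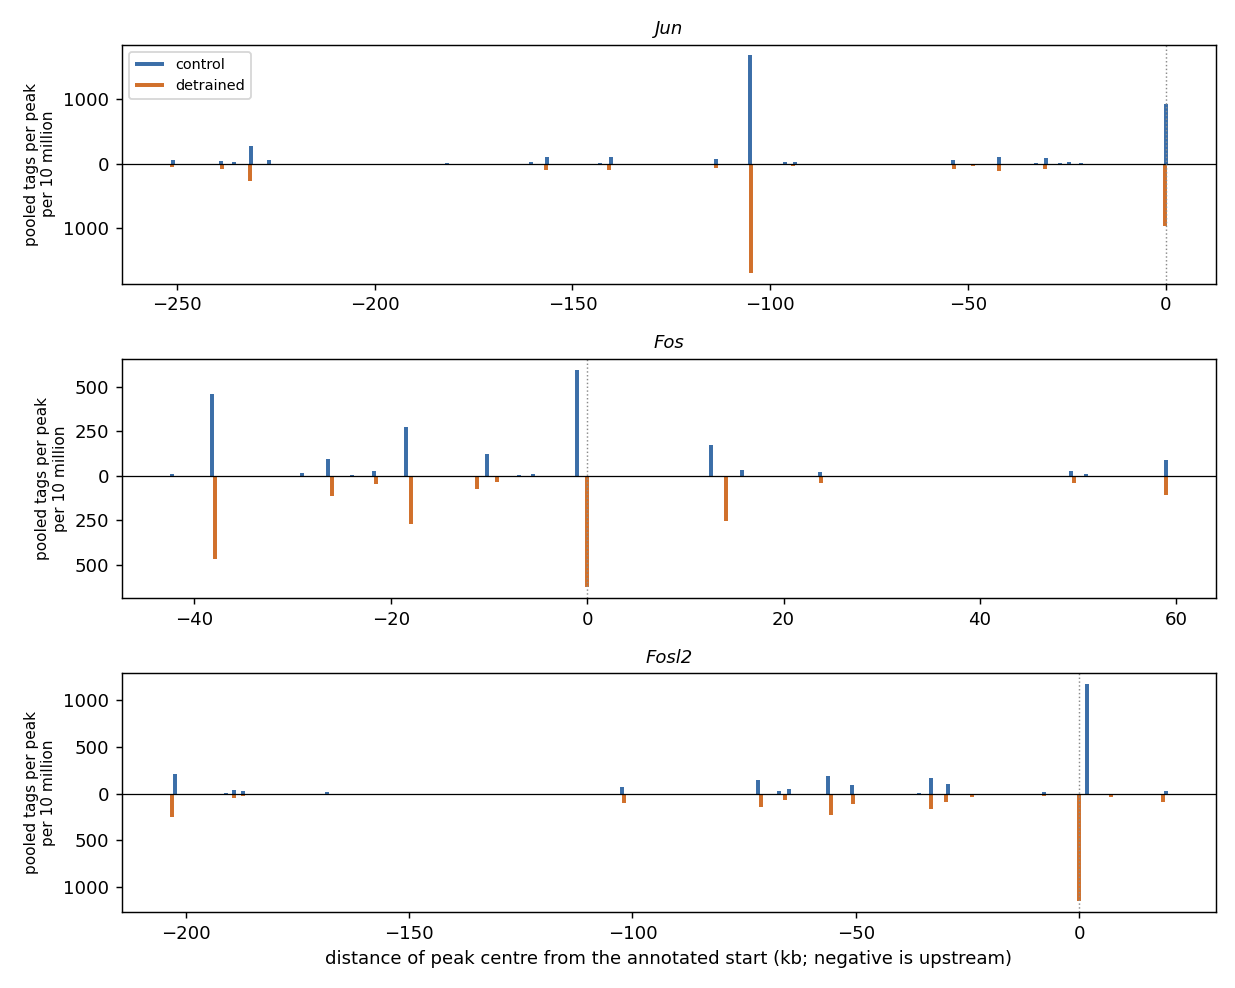
Pooled tags per 10000000 in each listed peak of Jun, Fos and Fosl2, against the distance of the peak centre from the annotated start in kb; control peaks point up in blue and detrained peaks down in orange. The tallest Jun peak lies about 105 kb upstream of the start, taller than the promoter peak, at nearly equal height in both lists.

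Jun had the largest set of peaks, 22 in the control list and 18 in the detrained list, the farthest of them at -251.3 kb. Its promoter held 25.2% of its tags in the control list and 25.5% in the detrained list. The strongest member peak of all lay 105 kb upstream in the noncoding gene Junos, from 95150561 to 95164058 on chromosome 4 in the control list. It was 13497 bp long there and 13954 bp in the detrained list. Its pooled tags were 1667 and 1683, which ranked it 71st and 54th among all peaks of the lists, and exceeded the 922 and 963 tags of the promoter. The libraries overlapped, with 1432 and 1908 tags in the control libraries against 1716 and 1652. Of the 14 shared Jun peaks none was lower on tags per kb in both detrained libraries, and 6 were higher. On tags per peak 3 were higher and 2 lower. The shares of all shared peaks were 21.3% higher and 27.2% lower per kb, and 24.7% higher and 28.8% lower per peak. Summed over all peaks annotated to Jun, the tags were 3290 and 4039 against 3850 and 3709, which overlapped.

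The AP-1 sites in peaks of both lists are shown for the Jun domain, for a Jun peak that was higher in the detrained libraries on both scales, and for the strongest distal peak of Fos and of Fosb. Capitals mark the site, with 27 bases on either side, on build GRCm38.
Jun AP-1 site, chr4:95152128-95152188, plus strand: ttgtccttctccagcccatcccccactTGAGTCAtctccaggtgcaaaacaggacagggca
Jun AP-1 site, chr4:95154442-95154502, plus strand: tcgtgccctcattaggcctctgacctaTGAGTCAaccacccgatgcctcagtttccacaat
Jun AP-1 site, chr4:95162163-95162223, plus strand: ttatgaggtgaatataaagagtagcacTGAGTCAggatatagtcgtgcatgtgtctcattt
Jun AP-1 site, chr4:95162603-95162663, plus strand: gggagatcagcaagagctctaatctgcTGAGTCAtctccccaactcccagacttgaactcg
Jun AP-1 site, chr4:95105541-95105601, plus strand: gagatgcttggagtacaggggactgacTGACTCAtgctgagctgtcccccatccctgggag
Fos AP-1 site, chr12:85434328-85434388, plus strand: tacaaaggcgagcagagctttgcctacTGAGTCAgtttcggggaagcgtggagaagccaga
Fos AP-1 site, chr12:85434735-85434795, plus strand: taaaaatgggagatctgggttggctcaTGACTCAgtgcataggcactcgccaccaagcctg
Fosb AP-1 site, chr7:19327321-19327381, plus strand: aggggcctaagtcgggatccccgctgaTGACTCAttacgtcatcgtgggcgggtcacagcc
The first 4 lie in the Jun domain, at -99.93, -102.2, -109.97 and -110.4 kb from the start, and the fifth at -53.3 kb. The Fos sites lie at -39.5 and -39.1 kb from its start and the Fosb site at -17.3 kb. Member peaks held 31 AP-1 sites in the control list, 0.188 per kb, against 0.210 per kb over all control peaks, and 33 in the detrained list, 0.192 per kb against 0.215. At least 1 site was in 30.4% of control member peaks and in 31.8% of all control peaks. Both the rates and the shares were thus close to those of all peaks. In promoter peaks of both lists, sites lay at -0.62 kb from the Fosl2 start, at 0.55 kb from the Atf3 start, at -2.57 and -3.65 kb from the Junb start and at 3.43 kb from the RefSeq start of Jund. A further site, at 5.22 kb from the Jund start, lay in the detrained promoter peak and in a separate control peak.

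Fos had 17 control and 11 detrained peaks, centred from -42.3 kb to 58.9 kb. All 6 control peaks without a detrained counterpart were weak, at most 18.1 tags. The strongest distal site, 38.2 kb upstream over the noncoding gene Gm40477, had 409 and 513 tags in the control libraries and 489 and 449 in the detrained libraries, which overlapped. The site 18.5 kb upstream had 77.0 and 88.4 tags per kb against 68.6 and 57.1, lower in both detrained libraries by 0.40, but 255 and 293 tags per peak against 298 and 248. Downstream, the locus 23.8 kb from the start had 21.2 and 20.9 tags against 41.0 and 36.1, a log2 difference of 0.87, with a called length of 628 bp in the control list and 1588 bp in the detrained list. Per kb of called peak the direction was the opposite, with 33.7 and 33.2 tags against 25.8 and 22.7. The gene's summed tags were 1895 and 2066 against 2221 and 1924 and overlapped.

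Fosl2 had 17 peaks in either list, the farthest at -203.2 kb and many of them inside introns of the neighbouring gene Babam2. The locus at the 3′ end of Fosl2 itself, 19.03 kb from the start, had the largest difference of the gene. It held 32.6 and 28.8 tags in the control libraries and 94.2 and 86.4 in the detrained libraries, a log2 difference of 1.56 (SD 0.11), with called lengths of 921 bp and 2339 bp. Per kb it had 35.3 and 31.3 tags against 40.3 and 36.9, and the detrained values were again both higher. Summed over all Fosl2 peaks the tags were 2331 and 2406 against 2479 and 2617, a difference of 0.10 with both detrained libraries higher.

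Fosb had 4 peaks in each list and Junb a single peak in each, which held all of its 942 and 894 pooled tags. The Fosb sum was 401 and 384 against 505 and 448, a log2 difference of 0.28 with both detrained libraries higher, and the promoter peak held 50.1% of the pooled tags in the control list and 39.2% in the detrained list. Jund, with 3 and 2 peaks, summed to 1066 and 1065 against 1039 and 977, a difference of -0.08 with both detrained libraries lower. Atf3, with 5 and 4 peaks, all within the long GENCODE form of the gene, summed to 222 and 183 against 379 and 313, a difference of 0.77. Over all 13524 genes with peaks in both lists, the sums were apart for 59.5%, 24.3% higher and 35.2% lower, with a median log2 difference of -0.05. Of the 7 members 3 were higher and 1 was lower.

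**Figure D4:**
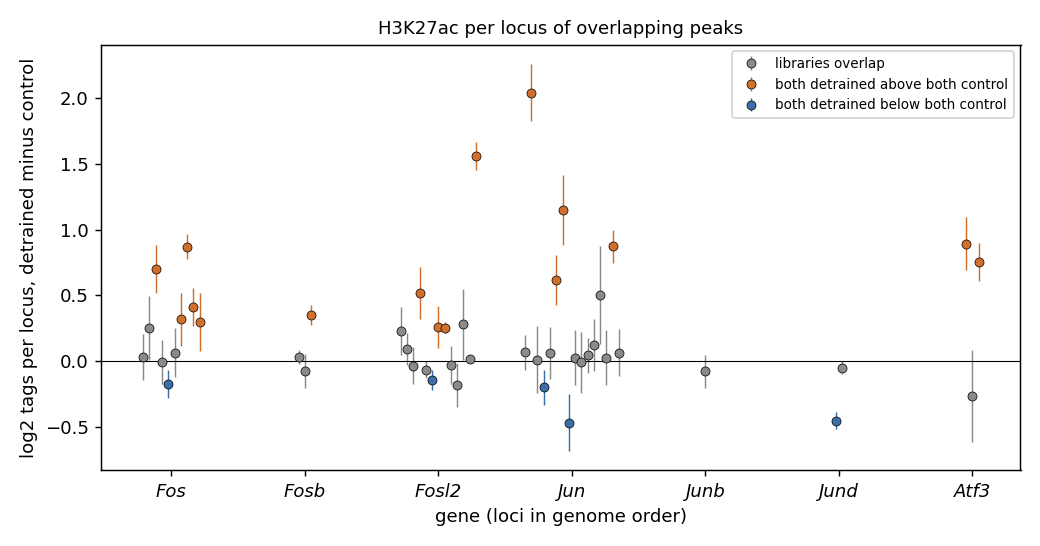
Log2 difference in tags per locus (detrained minus control) for the 48 loci of overlapping peaks of AP-1 genes, in genome order within each gene. Bars are the pooled SD within groups of 2 libraries, and orange and blue mark loci with both detrained libraries above or below both control libraries; the highest point is a Jun locus at 2.04.

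Because peaks were often split in one list and joined in the other, overlapping peaks were also joined into loci, a choice made after the data were seen. The members had 48 loci with a median log2 difference of 0.07, against -0.01 over 31776 loci. The groups were apart at 21 (43.8%), 16 higher and 5 lower, against 57.6% of all loci (28.2% higher and 29.5% lower). A difference of at least 1.5-fold with groups apart was seen at 9 loci, all higher in the detrained libraries (18.8%), against 10.2% of all loci higher and 7.96% lower. The largest was a weak site 21.7 kb upstream of Jun, with 6.66 and 5.54 tags in the control libraries and 22.1 and 28.1 in the detrained libraries, a log2 difference of 2.04. Its called length was 500 bp in the control list and 2019 bp in the detrained list, and per kb of called peak the libraries overlapped. Of the 16 higher loci 15 had a longer called length in the detrained list, and of the 5 lower loci 4 had a shorter one. The same shares were not counted over all loci, but over all shared peaks tags per peak also followed the called length.

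Fosl1, which encodes Fra-1 and is scarce in resting tissues, had no peak annotated to it in either list. The nearest peak to its GENCODE start, at 5447547 on chromosome 19, ended 8134 bp away in the control list and 7154 bp away in the detrained list, and was annotated to Ccdc85b with 479 and 319 pooled tags. In each list 1 peak, annotated to Ccdc85b, overlapped the gene body of Fosl1.

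The genes around AP-1 were read at their promoters in 5 lists, given as list members with peaks that held the same RefSeq start in both lists. Rps6ka1, a ribosomal S6 kinase whose start peaks held different starts in the 2 lists, was left out. Per kb, 31 of 54 such promoters had groups apart, 11 of them higher, against 54.4% of all promoter peaks (23.7% higher and 30.7% lower), whose median log2 difference was -0.03. Per peak, 28 had groups apart, 9 of them higher, against 49.5% of all promoter peaks (19% higher and 30.5% lower), with a median of -0.05. The counts of each list, which are of few genes, are to be read against these shares. Dimer partners and other bZIP factors had 11 promoters, 2 higher and 6 lower per kb, with a median log2 difference of -0.10, but 1 higher and 1 lower per peak, with a median of -0.01. Nfe2l2, the antioxidant factor Nrf2, was the densest at 133 and 147 tags per kb against 136 and 128. Mafk, a small Maf protein, had 122 and 137 against 122 and 114. Atf4, of the amino acid and unfolded protein response, had the highest difference, 94.0 and 105 against 153 and 153 tags per kb, or 0.62, but -0.17 per peak with both detrained libraries lower. Jdp2, a repressor that dimerizes with Jun, had the lowest at -0.36 per kb and -0.01 per peak.

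Among the MAP kinases that act upstream of AP-1, 12 promoters gave 3 higher and 6 lower per kb, with a median of -0.15, and 3 higher and 5 lower per peak, with a median of -0.10. Map2k2 (MEK2) had 117 and 109 tags per kb against 126 and 117. Map2k7, an activator of JNK, had 123 and 127 against 99.5 and 94.5, a difference of -0.37 per kb and -0.08 per peak, lower in both detrained libraries on both scales. Mapk8, JNK1, had 86.6 and 92.2 against 96.1 and 72.0, which overlapped. The extremes per kb were Mapk9, JNK2, at 0.40 per kb but -0.49 per peak, and Map3k5, the stress kinase ASK1, at -0.88 per kb but 0.69 per peak. Mapk14, named after its values were seen, was the lowest of this list per peak, at -1.10 with groups apart, but was 0.36 per kb.

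SRF, its partners, CREB and the kinase Rps6ka5 (MSK1) had 8 promoters, none higher and 5 lower per kb, with a median of -0.14, and 1 higher and 5 lower per peak, with a median of -0.19. Over all promoter peaks the shares were 23.7% higher and 30.7% lower per kb, and 19% higher and 30.5% lower per peak. The densest promoters of this list were Creb1 (105 and 107 against 118 and 107), Elk4, a ternary complex factor (99.2 and 109 against 82.5 and 70.8), and Mrtfb, a coactivator of SRF (88.1 and 94.4 against 79.3 and 79.2). Elk4 had the lowest difference at -0.45 per kb but 0.19 per peak, while Mrtfb was lower on both scales, at -0.20 and -0.28.

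Other immediate early genes had 14 promoters, 2 higher and 3 lower per kb with a median of -0.07, and 4 higher and 3 lower per peak with a median of 0.07. The nuclear receptor Nr4a3 was densest, with 160 and 155 tags per kb against 133 and 121, and was -0.31 per kb but 0.21 per peak. Zfp36, which destabilizes AU-rich mRNAs, and Dusp1, a MAP kinase phosphatase, overlapped on both scales. Nr4a1 was highest at 0.29 per kb and -0.38 per peak, and Klf6 lowest at -0.50 and 0.46. The negative regulators of MAP kinase had 9 promoters, 4 higher and none lower per kb with a median of 0.14, but none higher and 5 lower per peak with a median of -0.13, against the same shares of all promoter peaks (23.7% and 30.7% per kb, 19% and 30.5% per peak). Dusp16, Spred1 and Spry2 were densest, at 116, 95.0 and 90.0 tags per kb over the 4 libraries, and Dusp6 and Dusp5 had the highest and lowest differences per kb, 0.46 and -0.07. Dusp10, named after its values were seen, had the largest difference per peak of the 54 list promoters, -2.48 with groups apart, but 0.14 per kb with groups that overlapped.

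**Figure D5:**
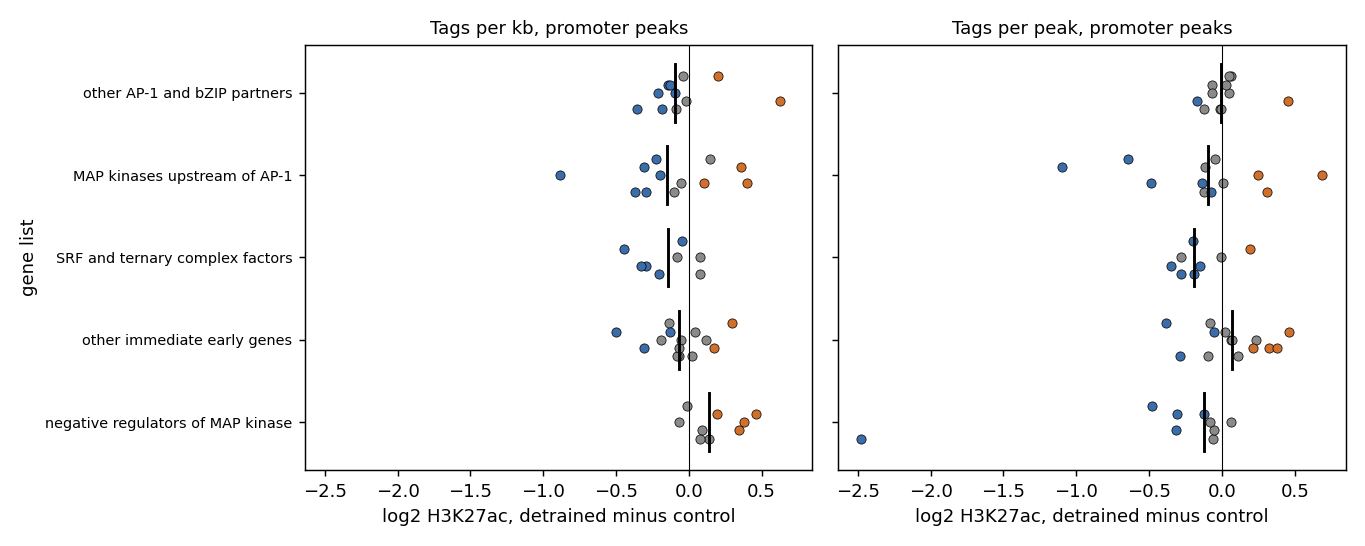
Log2 difference in H3K27ac (detrained minus control) at promoter peaks of 5 gene lists, as tags per kb (left) and tags per peak (right); each point is a gene, black bars are list medians, and orange and blue mark both detrained libraries above or below both control libraries. The negative regulators lie mostly right of 0 per kb and left of 0 per peak.

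For each promoter the other gene with the most similar tags per kb over the 4 libraries was found by Euclidean distance on the log2 scale. It was Nbeal1 for Fos (distance 0.06), Snapc1 for Fosb (0.05), Gm14966 for Fosl2 (0.11), Ak6 for Jun (0.06), Psma3 for Junb (0.05), Luc7l3 for Jund (0.10) and Fam102b for Atf3 (0.07).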

How the data were processed

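H3K27ac ChIP-seq was measured in 2 control and 2 detrained quadriceps, with 1 input per group. Reads were mapped by the authors to mm10 with Bowtie (1.2 in the submitters' processing notes, another version in their methods). They kept unique alignments and 1 tag per position, and called peaks with HOMER on both libraries of a group together against its input. The deposited peak score is a signal, the pooled tags in the peak per 10000000. The deposited log2 values of each library were normalized to its total tags and regularized (shrunken) within 1 table, which draws libraries of a group together. The deposited log2 fold over input and its adjusted p-value were used only to describe and filter peaks.

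Pooled tags were shared out to the libraries in proportion to total tags and the log2 values. Tags were divided by the called length and scaled to 10000000 tags after adding 0.5 tags. Depth was 20805019 to 22400894 tags, and tags per kb have no counting interval here because counts per library were not used. Peaks were paired one-to-one at 50% cover of each. The annotation of the tables, or a centre within 1 kb of the start, gave promoter pairs for Fosb, Jun and Junb alone, so peaks holding the RefSeq start were used for all 7 genes, a choice made after the data were seen. Genes named were the 8 members, the 3 densest and the highest and lowest per kb of each list, and the nearest gene to each promoter. Dusp10 and Mapk14 were named after their values were seen. The members and lists were chosen with earlier results of these data known. The control columns C2 and C3 could be tied to the control group but not to single samples. Sequences came from RefSeq and GRCm38.p6, in which all 7 promoter windows were found. Python 3.11.15 with pandas 2.3.3 and numpy 2.4.6 was used, and the steps were tested on simulated data. The simulation had equal called lengths in both groups and no shrinkage of the log2 values, so it cannot show the effect of either. Alternatives are given in the closing section.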

Additional observations from a re-analysis of the deposited data

How the results depend on the processing

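The direction of most member promoters depended on the scale, as it did at some list promoters, among them Atf4 and Klf6. On tags per peak instead of tags per kb, 4 promoters with groups apart changed sign, to 0.066 for Fos, -0.024 for Fosl2, -0.076 for Junb and 0.07 for Jund. The members' median log2 difference of 0.05 lay between -0.07 and 0.12 under its alternatives, and was below 0 over promoter peaks alone (-0.07) and over peaks at least 4-fold over input with adjusted p under 0.001 (-0.01). Leaving out 1 library each moved the shared peaks with groups apart from 19 to between 25 and 29, because fewer libraries have to be apart (all shared peaks went from 48.5% to between 72.2% and 76.0%). The promoters of the 5 lists went from 31 to between 38 and 47 of 54, and all promoter peaks from 54.4% to between 76.6% and 77.8%. The median over the 3 promoters of the original rule went from -0.01 to between -0.12 and 0.10, and the members' median to between 0.04 and 0.12. Without Ex2 the median of the MAP kinase list went from -0.15 to -0.002 and that of the immediate early list from -0.07 to 0.05, and without Ex1 they were -0.26 and -0.16. When pairs needed 80% cover, 5 of 16 shared member peaks were apart, against 40.2% of all shared peaks, and 13 of 30 list promoters, against 41.5% of all promoter peaks. Of member peaks at least 4-fold over input with adjusted p under 0.001, 34 of 34 control peaks overlapped a detrained peak (88.7% of all control peaks) and 33 of 41 detrained peaks overlapped a control peak (80.5%, against 84.6% of all). With 1 mismatch allowed, 3 of 7 promoter windows held an AP-1 site, against 52% of 2000 random windows, and 0 held an exact one. No paired analysis was possible because nothing ties the columns C2 and C3 to Ex1 and Ex2 and no test between groups was made. Weak peaks rest on few tags, and the shrinkage of the log2 values makes the spread within groups too small.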
